A study of Mus musculus with 27 samples.

Results

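The elastic fibre genes were the 10 genes whose symbol in the expression table was Eln, Fbn1, Fbn2, Mfap2, Mfap4, Mfap5, Fbln1, Fbln2, Fbln5 or Emilin1, out of 54532 genes in that table. They were followed through volumetric muscle loss (VML), an injury in which so much muscle is removed that the tissue does not restore itself. In 8-week-old male C57BL/6 mice, 40% of the tibialis anterior, a muscle of the front of the lower leg, was excised as a partial-thickness defect. Whole muscle was collected from uninjured controls (n = 5) and on day 3 (n = 5), day 7 (n = 6), day 14 (n = 6) and day 21 (n = 5) after VML. The labels name no transgene or drug in any group, and every injured group was set against the same uninjured control. The deposited design text describes excision on 1 side and the published methods on both sides, and no label ties a sample to an animal, so p-values here measure the spread between samples, which may be technical in part.

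Elastic fibres give tissue its recoil. Elastin, laid down as soluble tropoelastin, is deposited on a scaffold of fibrillin microfibrils and cross-linked by lysyl oxidases, and fibulins, microfibril-associated glycoproteins and emilins sit at the interface of elastin and microfibril. In skeletal muscle these fibres run through the connective tissue sheaths and the walls of blood vessels, and microfibrils also hold TGF-beta and BMP growth factors in latent form.

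All values are FPKM, reads scaled to the length of a gene's exons and to the size of the library, which allows levels of different genes to be set side by side. The recovered read total per sample was 14376395 to 24436763 over the 27 samples. A gene was tested when its FPKM was at least 0.5 in at least 5 samples, which left 14630 genes, and all 10 elastic fibre genes were among them. Fbn2 reached 0.5 FPKM in 6 samples, of which 0 were controls, 2 were from day 3, 3 from day 7, 1 from day 14 and 0 from day 21, so it entered the test through the injured groups where it was higher, and counts of calls and of non-overlap are also given over the other 9 genes. Positions are those of the table, whose build is not named in the sources used here and whose coordinates were the same as in GENCODE M21 (GRCm38) for 98.3% of the 54409 genes found in both. A gene was called changed when its adjusted p was under 0.05 in limma, a linear model fitted across all tested genes, with Benjamini-Hochberg adjustment over all of them. Fold changes are on the log2(FPKM + 1) scale, which understates the change of weakly expressed genes.

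Not every library lay closest to its own group. Over the tested genes, day 3 replicate 5 was nearest to the mean of day 7 and day 7 replicate 5 was nearest to the mean of day 3. Summed FPKM of 5 macrophage markers (Ptprc, Adgre1, Cd68, Itgam, Csf1r) was 48.2 in the library labelled day 3 replicate 5 against 132 to 322 in the other day 3 samples, and 308 in the library labelled day 7 replicate 5 against 6.10 to 67.2 in the other day 7 samples. These are named the doubted libraries below. Calls against control, or between days 21 and 3 or 7 and 3, that were gained or lost by an elastic fibre gene when both libraries were left out are given beside the gene, and for the other gene lists the counts are given again without them. The nearest group mean was the sample's own in 5 of 5 controls, 4 of 5 samples on day 3, 3 of 6 on day 7, 3 of 6 on day 14 and 3 of 5 on day 21. The tissue label held against the markers, with a median summed FPKM of 56762 for 5 muscle fibre genes (Acta1, Ckm, Myh4, Myh1, Mylpf) in control muscle.

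Promoter sequences were found for 6 of the 10 genes (Fbn1, Mfap2, Fbln1, Fbln2, Fbln5 and Emilin1), giving 9 windows of 300 bases that run from 250 bases before a transcription start to 50 after it. Windows of 4 genes are printed here from RefSeq (GRCm38.p6), Fbn1 and Emilin1 because their RNA was back near the control level on day 21, and Mfap2 and Fbln5 because their RNA was highest on day 7. Capitals mark a match on either strand to the GC box GGGCGG or to the SMAD element CAGAC. The windows lie at chr2:125506389-125506688 on the minus strand (Fbn1), chr5:30913536-30913835 on the plus strand (Emilin1), chr4:141010431-141010730 on the plus strand (Mfap2) and chr12:101819070-101819369 on the minus strand (Fbln5).
Fbn1: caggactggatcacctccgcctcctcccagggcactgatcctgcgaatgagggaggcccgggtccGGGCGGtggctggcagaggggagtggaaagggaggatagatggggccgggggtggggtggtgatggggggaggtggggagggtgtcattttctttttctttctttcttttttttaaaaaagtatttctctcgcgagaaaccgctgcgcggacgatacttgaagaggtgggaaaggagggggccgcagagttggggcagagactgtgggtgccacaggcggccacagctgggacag
Emilin1: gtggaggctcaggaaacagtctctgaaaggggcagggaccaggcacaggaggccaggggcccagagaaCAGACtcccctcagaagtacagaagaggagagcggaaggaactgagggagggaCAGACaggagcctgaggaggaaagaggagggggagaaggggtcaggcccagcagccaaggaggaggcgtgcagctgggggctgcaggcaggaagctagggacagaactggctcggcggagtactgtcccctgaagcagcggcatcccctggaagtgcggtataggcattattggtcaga
Mfap2: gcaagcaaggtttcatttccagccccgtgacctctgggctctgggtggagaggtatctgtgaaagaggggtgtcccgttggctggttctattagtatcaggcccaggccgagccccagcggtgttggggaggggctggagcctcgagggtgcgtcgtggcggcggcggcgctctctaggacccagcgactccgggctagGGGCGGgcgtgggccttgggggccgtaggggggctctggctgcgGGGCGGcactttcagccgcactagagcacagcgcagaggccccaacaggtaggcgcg
Fbln5: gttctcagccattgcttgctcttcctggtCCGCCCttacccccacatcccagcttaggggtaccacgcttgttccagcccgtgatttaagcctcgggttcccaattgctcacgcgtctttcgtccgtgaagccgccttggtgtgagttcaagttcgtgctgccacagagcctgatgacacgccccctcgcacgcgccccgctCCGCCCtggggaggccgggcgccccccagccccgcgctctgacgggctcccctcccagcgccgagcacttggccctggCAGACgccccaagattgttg

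A GC box match was present in 5 of the 9 windows, of 5 genes, against 35.7% of all 32851 promoter windows of the same length. CAGAC was present in 6 of the 9 windows, of 4 genes, against 49.6% of all windows. The TATA box TATAAA was in 0 of the 9 windows, against 13.6% of all windows, and the AP-1 site TGANTCA was in 0 of the 9, against 7.81%. Matches on both strands were counted, and no match of a motif shares bases with a match of another. The windows of a gene with more than 1 start overlap in part for Fbln1 and Mfap2, so they are not separate observations. Of the windows printed, Fbn1 and Mfap2 held only GC boxes, Emilin1 held only CAGAC and Fbln5 held both.

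All 10 elastic fibre genes were higher than in uninjured muscle on days 3 and 7, and fewer were called at each later time. Fbn1, Emilin1, Fbn2 and the fibulins Fbln1 and Fbln2 were no longer called by day 14, while Eln, Mfap2, Mfap4, Mfap5 and Fbln5 still were. On day 21 the call held for Eln and Mfap2. Before adjustment, limma p was under 0.05 in the higher direction for 9 of the 10 genes on day 14, all but Fbln2. On day 21 it was so for 5 (Eln, Mfap2, Mfap4, Mfap5 and Fbln5). Of the 14630 tested genes, 2380 and 1351 were higher by the same measure. On day 3 the 10 genes called higher compared with 23.4% of all tested genes called higher and 19.8% called lower, and on day 7 the 10 called higher compared with 15% higher and 14.4% lower. On day 14 there were 5 genes called higher, set against 9.02% of all tested genes higher and 11.3% lower, and day 21 had 2, set against 1.74% higher and 1.69% lower. Among the 9 genes other than Fbn2 the counts were 9, 9, 5 and 2, and no elastic fibre gene was called lower than control at any time. With day 3 replicate 5 and day 7 replicate 5 left out, 9 genes were called higher on day 3 (Fbln5 lost), 10 on day 7, 6 on day 14 (Emilin1 gained) and 3 on day 21 (Mfap4 gained), beside 23.4%, 12.5%, 11.8% and 2.63% of 14416 tested genes higher. Quantile normalization gives every sample the same distribution of values. Under it the counts were 8 on day 3 (Eln and Fbln5 lost), 9 on day 7 (Fbn2 lost), 4 on day 14 (Fbln5 lost) and 1 on day 21 (Mfap2 lost). The calls over all 14630 tested genes fell as well, to 2774, 1700, 1007 and 153 higher from 3417, 2189, 1320 and 255. The median log2 fold change of the 10 genes was 1.46 on day 3, 1.17 on day 7, 0.57 on day 14 and 0.28 on day 21, beside a median over all tested genes of 0.012, 0.028, 0.020 and 0.014.

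The FPKM of a sample depends on how samples were scaled to each other. With each sample's own read total as the denominator, the median over all tested genes on day 3 moved to 0.404, and once FPKM was rescaled to a common sum (TPM) it moved to 0.618, so that 91.4% and 95.5% of all calls were then higher, against 54.1% with the deposited scaling. On day 7 these shares were 92.7% and 96.8% against 51.0%, on day 14 88.8% and 94.7% against 44.5%, on day 21 79.7% and 88.9% against 50.8%, and between day 21 and day 3 6.54% and 3.45% against 36.2%. Changes are read here relative to the median of all genes, which under the deposited scaling lay within 0.03 of 0. The counts of elastic fibre genes called higher stayed at 10, 10 and 5 through day 14 under both scalings, while far more of all genes were called higher on days 3 and 7. With own read totals, 6534, 5348, 2275 and 106 of 14630 tested genes were higher on days 3, 7, 14 and 21. The common sum gave 6942, 6372, 2096 and 64, against 3417, 2189, 1320 and 255 with the deposited scaling. On day 21 the count was 1 with own read totals (Eln) and 0 with the common sum, where Eln stood at 1.65 (adjusted p = 0.0504) and Mfap2 at 1.94 (adjusted p = 0.0709).

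**Figure D1:**
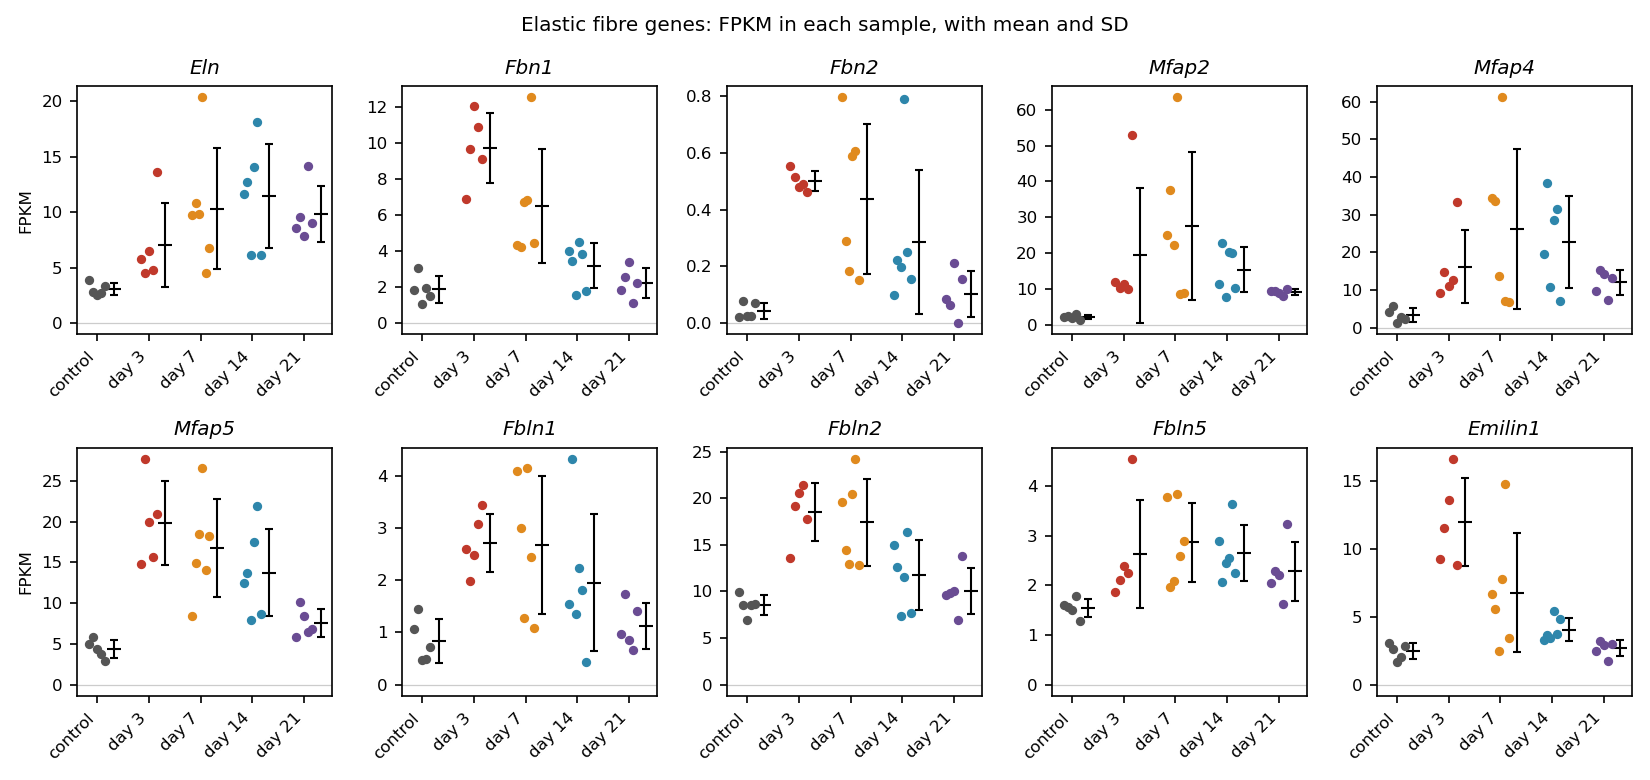
FPKM of each elastic fibre gene (vertical axes, linear from 0) in each of the 27 samples (points, by group along the horizontal axis), with the group mean and SD as a black bar. Eln stayed high from day 7 to day 21, whereas Fbn1 and Emilin1 were highest on day 3 and back near the control points on day 21.

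Summed FPKM of the 10 genes was 28.4 ± 5.30 (SD, n = 5) in control muscle, 108.6 ± 33.2 (n = 5) on day 3, 117.7 ± 52.4 (n = 6) on day 7, 87.2 ± 32.3 (n = 6) on day 14 and 57.1 ± 7.32 (n = 5) on day 21. The make-up of that sum also changed. Fbln2 held 30.5% ± 3.51 (SD, n = 5) of it in control muscle and 17.5% ± 3.00 (n = 5) on day 21, and Eln held 10.98% ± 1.95 and 17.7% ± 6.58. In uninjured muscle the order of mean FPKM was Fbln2 8.54, Mfap5 4.37, Mfap4 3.35, Eln 3.07, Emilin1 2.45, Mfap2 2.30, Fbn1 1.87, Fbln5 1.55, Fbln1 0.837 and Fbn2 0.0437. The neighbours Mfap5 and Mfap4, Mfap4 and Eln, Emilin1 and Mfap2, Mfap2 and Fbn1, and Fbn1 and Fbln5 were in that order in only 3 or 4 of the 5 samples, so their order is within the spread. The order on day 21 was Mfap4 12.1, Fbln2 10.1, Eln 9.83, Mfap2 9.26, Mfap5 7.53, Emilin1 2.66, Fbln5 2.28, Fbn1 2.22, Fbln1 1.13 and Fbn2 0.103, where the first 5 genes were separated from the other 5 in 5 of 5 samples at the boundary of Mfap5 and Emilin1. In bulk tissue, fewer cells of a type and less RNA per cell cannot be told apart, and the same holds for more.

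Eln (ENSMUSG00000029675, chr5:134702593-134747323, minus strand) encodes elastin, the protein of the elastic core. Its FPKM in the controls was 3.87, 2.83, 2.57, 2.73 and 3.35, and on day 3 it was 5.75, 4.54, 6.51, 4.81 and 13.6. On day 7 the lowest, median and highest values were 4.48, 9.78 and 20.3, and on day 14 they were 6.09, 12.1 and 18.1. On day 21 the samples stood at 8.58, 9.59, 7.86, 14.1 and 8.97. Every injured sample was above every control sample. The log2 fold change was 0.89 (SE 0.30, limma adjusted p = 0.019) on day 3, 1.36 (SE 0.29, adjusted p = 0.00155) on day 7, 1.53 (SE 0.29, adjusted p = 0.00124) on day 14 and 1.40 (SE 0.30, adjusted p = 0.0126) on day 21. Without day 3 replicate 5, the highest of its group, the change on day 3 was 0.65 (adjusted p = 0.0768), and under quantile normalization it was 0.78 (adjusted p = 0.0585). Of the rise of mean FPKM at its highest time point, day 14, 80.9% was left on day 21, the largest share among the 10 genes.

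Fibrillins build the microfibril on which elastin is laid. Fbn1 (ENSMUSG00000027204, chr2:125300594-125507993, minus strand), the main fibrillin of adult tissue, read 1.83, 3.05, 1.03, 1.96 and 1.48 FPKM in the controls and 6.91, 9.68, 12.1, 10.9 and 9.11 on day 3. Its lowest, median and highest values were 4.23, 5.57 and 12.5 on day 7 and 1.55, 3.66 and 4.497 on day 14, and on day 21 the samples stood at 1.83, 2.57, 3.37, 1.10 and 2.25. The day 3 and day 7 samples were all above the controls, and the day 21 samples lay among them, with 1 of 5 above the highest control. Fbn1 rose by 1.92 (SE 0.26, limma adjusted p = 3.79e-06) on day 3 and 1.34 (SE 0.25, adjusted p = 0.000488) on day 7 on the log2 scale, and was 0.52 (adjusted p = 0.129) on day 14 and 0.16 (95% confidence interval -0.36 to 0.69, adjusted p = 0.763) on day 21.

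Fbn2 (ENSMUSG00000024598), the fibrillin that is abundant in the developing embryo, was at 0.0215, 0.0776, 0.0244, 0.0233 and 0.0717 FPKM in control muscle, from 3 to 14 reads per sample and 34 reads in all. On day 3 the samples stood at 0.553, 0.513, 0.481, 0.490 and 0.462 FPKM, from 88 to 133 reads, and all 5 were above every control. The lowest, median and highest values were 0.153, 0.440 and 0.796 on day 7 and 0.0987, 0.210 and 0.790 on day 14, also above every control. The mean was 11.4-fold the control mean on day 3, 9.998-fold on day 7 and 6.54-fold on day 14. On the log2(FPKM + 1) scale that was 0.52 (SE 0.13, limma adjusted p = 0.00148), 0.44 (adjusted p = 0.00788, or 0.27 with adjusted p = 0.0796 under quantile normalization) and 0.28 (adjusted p = 0.0953), and with 0.1 FPKM added in place of 1 the day 14 change was 1.26 (adjusted p = 0.0249). On day 21 the samples read 0.0848, 0.0645, 0.211, 0 and 0.154 FPKM, a change of 0.08 (adjusted p = 0.772), and the sample at 0 allows a level of up to 0.0191 FPKM at 3 reads, a floor that covers counting error only.

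The microfibril-associated glycoproteins coat the fibrillin scaffold. Mfap2 (ENSMUSG00000060572, chr4:141010418-141015984, plus strand), a small protein that binds fibrillin and tropoelastin, had the largest change of the 10 genes on the log2(FPKM + 1) scale on days 3 and 7 when all libraries were used. Its control samples read 2.36, 2.495, 2.11, 3.02 and 1.52 FPKM and its day 3 samples 12.1, 10.3, 11.6, 10.04 and 53.01. The lowest, median and highest values were 8.75, 23.8 and 63.4 on day 7 and 7.75, 15.8 and 22.8 on day 14. The day 21 values were 9.44, 9.55, 8.91, 8.19 and 10.2, a narrower range than at any other time after injury and wholly above the controls. The log2 fold change was 2.31 (SE 0.43, limma adjusted p = 0.000145) on day 3, 2.82 (SE 0.41, adjusted p = 4.26e-05) on day 7, 2.24 (SE 0.41, adjusted p = 0.000883) on day 14 and 1.65 (SE 0.43, adjusted p = 0.0317) on day 21. Without day 3 replicate 5, whose value was the highest of its group, the day 3 change was 1.88 (adjusted p = 0.000406), below those of Emilin1 (1.98), Fbn1 (1.94) and Mfap5 (1.92) without the same library. The day 21 call was lost with no filter (1.65, adjusted p = 0.0779) and under quantile normalization (1.56, adjusted p = 0.0702). It was also lost, with the change at 1.56 to 1.72 and adjusted p of 0.0582 to 0.0812, when control replicate 1, 2, 3, 4 or 5 or day 21 replicate 1, 2 or 5 was left out.

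Mfap4 (ENSMUSG00000042436, chr11:61485431-61488900, plus strand), a fibrinogen-domain protein that binds tropoelastin, read 4.34, 5.89, 1.29, 2.87 and 2.35 FPKM in the controls and 9.28, 14.8, 11.2, 12.6 and 33.3 on day 3. On day 7 it ran from 6.93 over a median of 23.7 to 61.1, and on day 14 from 7.24 over 24.1 to 38.4. The day 21 samples stood at 9.65, 15.4, 14.4, 7.48 and 13.3, so that every injured sample was above every control sample. The gene rose by 1.95 (SE 0.49, limma adjusted p = 0.00253) on day 3, 2.34 (SE 0.47, adjusted p = 0.00104) on day 7 and 2.35 (SE 0.47, adjusted p = 0.00188) on day 14 on the log2 scale, and without day 3 replicate 5 the day 3 change was 1.66 (adjusted p = 0.0103). On day 21 the change was 1.65 (SE 0.49, 95% confidence interval 0.63 to 2.66), and the adjusted p of 0.0611 missed the threshold, while an exact two-sided permutation test of these 10 samples gave p = 0.00794, the smallest that 5 against 5 samples can give and 1 of 40 such tests over genes and time points. The adjusted p on day 21 was 0.0347 without both doubted libraries, 0.0495 and 0.0391 with 0.5 and 0.1 FPKM added in place of 1, and 0.00697 with only the control and day 21 samples in the fit. Over all alternatives, 6 gave a call and 17 did not, with adjusted p up to 0.155. With any 1 control or day 21 library left out, the adjusted p was 0.0619 to 0.14. Mfap4 overlaps Mapk7 on the opposite strand, whose FPKM reached 5.15, and the libraries were not directional, so reads where they overlap cannot be told apart. Eln and Fbn1 also overlap opposite-strand genes, Gm30003 and Gm9913, whose FPKM reached 0.289 and 0.0841.

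Mfap5 (ENSMUSG00000030116, chr6:122505845-122529290, plus strand) encodes a relative of Mfap2 that carries an integrin-binding motif. It was 4.37 ± 1.15 FPKM (SD, n = 5) in controls, 19.8 ± 5.13 (n = 5) on day 3, 16.8 ± 6.04 (n = 6) on day 7, 13.7 ± 5.33 (n = 6) on day 14 and 7.53 ± 1.73 (n = 5) on day 21. All samples of days 3, 7 and 14 were above the highest control, 5.86, and 4 of 5 were on day 21. The log2 fold change was 1.95 (SE 0.26, limma adjusted p = 3.08e-06), 1.68 (adjusted p = 4.26e-05), 1.40 (adjusted p = 0.000599) and, on day 21, 0.67 (adjusted p = 0.140, or 0.0391 with only the control and day 21 samples in the fit).

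Fibulins bridge elastin, microfibrils and the cell surface. Fbln5 (ENSMUSG00000021186, chr12:101746565-101819055, minus strand), which binds both elastin and lysyl oxidase-like 1, was 1.55 ± 0.185 FPKM (SD, n = 5) in controls and 2.64 ± 1.09 (n = 5), 2.87 ± 0.805 (n = 6), 2.65 ± 0.565 (n = 6) and 2.28 ± 0.596 (n = 5) on days 3, 7, 14 and 21. Its rise was the smallest of the 10 genes on day 3, at 0.47 on the log2 scale (SE 0.17, limma adjusted p = 0.0235), followed by 0.58 (adjusted p = 0.00865) on day 7, 0.51 (adjusted p = 0.0261) on day 14 and 0.35 (adjusted p = 0.240) on day 21. The day 3 call was lost without day 3 replicate 5, at 0.31 (adjusted p = 0.103), or without control replicate 5, at 0.43 (adjusted p = 0.0565), and under quantile normalization, at 0.30 (adjusted p = 0.142). On day 14 it was lost with no filter on low values, at 0.51 (adjusted p = 0.0548), under quantile normalization, at 0.40 (adjusted p = 0.0766), without control replicate 5, at 0.47 (adjusted p = 0.0668), or without day 14 replicate 5, at 0.44 (adjusted p = 0.0759).

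Fbln2 (ENSMUSG00000064080, chr6:91212455-91272540, plus strand), a large fibulin of vessel walls and basement membranes, had the highest level of the set in control muscle and a range of 6.93 to 9.97 FPKM there. It ranged over 13.6 to 21.4 on day 3, 12.9 to 24.2 on day 7, 7.31 to 16.4 on day 14 and 6.97 to 13.8 on day 21. The day 3 and day 7 groups did not overlap the controls, and those of days 14 and 21 did. Fbln2 rose by 1.02 (SE 0.21, limma adjusted p = 0.000302) on day 3 and 0.92 (adjusted p = 0.00157) on day 7, and was 0.37 (adjusted p = 0.182) and 0.19 (adjusted p = 0.640) on days 14 and 21. Fbln1 (ENSMUSG00000006369, chr15:85205949-85286535, plus strand), a fibulin found within elastic fibres and around vessels, ranged over 0.468 to 1.45 FPKM in controls and 1.99 to 3.44 on day 3, with changes of 1.03 (SE 0.27, adjusted p = 0.00319) on day 3, 0.94 (adjusted p = 0.00837) on day 7, 0.60 (adjusted p = 0.0983) on day 14 and 0.22 (adjusted p = 0.700) on day 21. Without day 14 replicate 6, the lowest of its group at 0.427 FPKM, the day 14 change of Fbln1 was 0.79 (adjusted p = 0.0234).

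Emilin1 (ENSMUSG00000029163, chr5:30913402-30921277, plus strand), an elastin-interface glycoprotein that restrains TGF-beta processing, read 3.07, 2.65, 1.64, 2.06 and 2.84 FPKM in the controls and 9.27, 11.5, 13.6, 16.6 and 8.81 on day 3. Its lowest, median and highest values were 2.44, 6.09 and 14.8 on day 7 and 3.24, 3.67 and 5.39 on day 14, and the day 21 samples stood at 2.46, 3.21, 2.91, 1.73 and 3.01. The day 3 and day 14 samples were all above the controls, and 1 sample of day 7 and 4 of day 21 were not. Emilin1 rose by 1.89 (SE 0.27, limma adjusted p = 6.84e-06) on day 3 and 1.01 (SE 0.25, adjusted p = 0.00490) on day 7, and was 0.55 (adjusted p = 0.127) on day 14 and 0.09 (95% confidence interval -0.46 to 0.63, adjusted p = 0.888) on day 21. The day 14 change was called, at the same 0.55, without day 3 replicate 5 and day 7 replicate 5 (adjusted p = 0.0495) and with only the control and day 14 samples in the fit (adjusted p = 0.0181). Of its rise on day 3, 2.24% was left on day 21, and of that of Fbn1 4.504%.

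**Figure D2:**
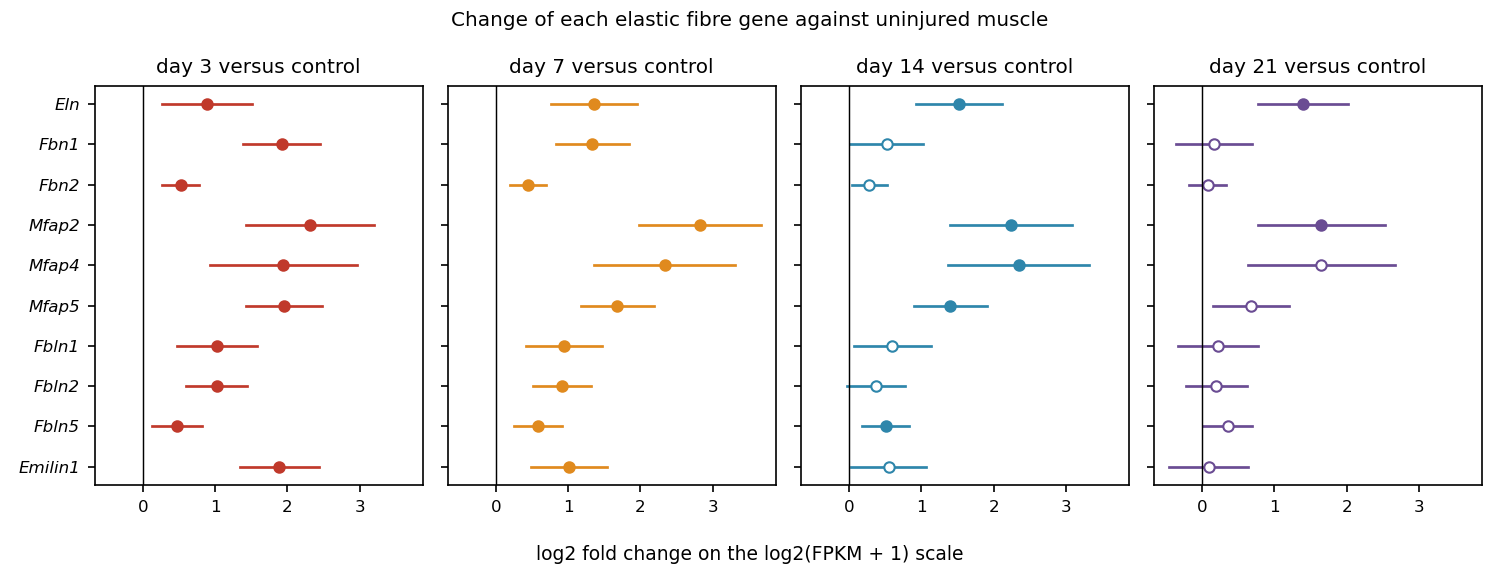
Log2 fold change of each elastic fibre gene against uninjured control at each time point (points) with its 95% confidence interval (lines), on the log2(FPKM + 1) scale, filled where the adjusted p was under 0.05. Filled points number 10 on days 3 and 7, 5 on day 14 and 2 on day 21.

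The groups did not overlap the controls for 10 of the 10 genes on day 3, 8 on day 7, 7 on day 14 and 3 on day 21 (Eln, Mfap2 and Mfap4), and for 9, 7, 6 and 3 of the 9 genes other than Fbn2. These counts were the same with day 3 replicate 5 and day 7 replicate 5 left out. Of all tested genes, 19.8% had every sample above all controls on day 3, 7.25% on day 7, 7.67% on day 14 and 5.26% on day 21.

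The question of which genes moved between time points was answered by direct comparison. Between day 21 and day 3, 6 genes fell and 0 rose, against 16.2% of all tested genes lower and 9.23% higher, and 5 of the 6 were among the 9 genes other than Fbn2. Emilin1 fell by 1.80 (SE 0.27, limma adjusted p = 5.77e-05), Fbn1 by 1.76 (SE 0.26, adjusted p = 5.42e-05), Mfap5 by 1.28 (SE 0.26, adjusted p = 0.000734), Fbln2 by 0.83 (SE 0.21, adjusted p = 0.00436), Fbln1 by 0.81 (SE 0.27, adjusted p = 0.0276) and Fbn2 by 0.45 (SE 0.13, adjusted p = 0.0105). The differences of the other 4 genes were not called, at 0.50 for Eln (95% confidence interval -0.12 to 1.13, adjusted p = 0.232), -0.66 for Mfap2 (-1.55 to 0.22), -0.30 for Mfap4 (-1.32 to 0.72) and -0.12 for Fbln5 (-0.47 to 0.22). The call for Fbln1 was lost, with adjusted p of 0.0530 to 0.0694, without day 3 replicate 4 or 5 or day 21 replicate 1, 3 or 4, at -0.73 to -0.79, and with no filter on low values (adjusted p = 0.0614). Without day 3 replicate 5 and day 7 replicate 5, Fbln1 was at -0.75 (adjusted p = 0.0573) and Eln was higher on day 21 than on day 3 by 0.74 (adjusted p = 0.0369), whereas TPM gave a difference of -0.05 for Eln and a call for Mfap2 (-1.29, adjusted p = 0.0433).

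From day 3 to day 7 no elastic fibre gene was called by limma with all libraries, when 0.0478% of all tested genes were called in either direction. Fbn1 and Emilin1 had an unadjusted p under 0.05, as had 2301 of the 14630 tested genes. With day 3 replicate 5 and day 7 replicate 5 left out, 4 of the 10 genes were called, beside 3.54% of 14416 tested genes higher and 11.5% lower. Mfap2 then rose by 1.19 (adjusted p = 0.0185) and Eln by 0.89 (adjusted p = 0.0228) on the log2 scale, while Emilin1 fell by 1.21 (adjusted p = 0.000333) and Fbn1 fell by 0.79 (adjusted p = 0.0282). Leaving out only day 7 replicate 5 gave 2 calls, Emilin1 at -1.12 (adjusted p = 0.000676) and Fbn1 at -0.77 (adjusted p = 0.0232). Leaving out only day 3 replicate 5 gave 1, Emilin1 at -0.97 (adjusted p = 0.0376). These libraries were doubted because each lay nearest the other group's mean. Leaving out either or both therefore tends to widen the difference between days 7 and 3, and the p-values without them do not allow for that choice. From day 7 to day 14 limma called 0 of the 10 genes, with 2 (Fbn1 and Fbln2) at an unadjusted p under 0.05, when 0.335% of all tested genes were called and 1821 had an unadjusted p under 0.05. From day 14 to day 21 it called 0 of the 10, with 1 (Mfap5) at an unadjusted p under 0.05, when 0% of all tested genes were called and 909 had an unadjusted p under 0.05.

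Ratios between genes of the same sample depend little on how samples were scaled to each other, and 0.1 FPKM was added to each gene before the log2 was taken. Of 3 such ratios at 4 time points, 12 comparisons with the control by exact two-sided permutation tests, 4 passed after Benjamini-Hochberg adjustment over the 12. The ratio of Mfap5 to Mfap2 had medians of 2.09 in controls, 1.56 on day 3, 0.625 on day 7, 0.944 on day 14 and 0.795 on day 21. Its log2 fell by 1.05 on day 14 (exact p = 0.00217, adjusted 0.0130) and by 1.21 on day 21 (exact p = 0.00794, adjusted 0.0318), without overlap with the controls in either group, and the difference on day 7 was -1.35 (exact p = 0.0368, adjusted 0.0736). The day 21 call was lost without day 21 replicate 4 (-1.21, adjusted 0.0571), and the difference on day 7 passed without day 7 replicate 5 (-1.58, adjusted 0.0476) or 6 (-1.64, adjusted 0.0381).

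The ratio of Eln to Fbn1, core to scaffold, was higher than in controls on days 14 and 21. Its median was 2.12 in controls, 0.539 on day 3, 1.89 on day 7, 3.55 on day 14 and 3.98 on day 21. On the log2 scale it was 1.31 below the control on day 3, a difference that missed the threshold (-1.31, exact p = 0.0238, adjusted 0.0571) and passed it without day 3 replicate 5 (-1.60, adjusted 0.0381). It was higher by 1.05 on day 14 (exact p = 0.00217, adjusted 0.0130), with no overlap, and by 1.40 on day 21 (exact p = 0.0159, adjusted 0.0476). The day 21 call was lost, at 1.04 to 1.49 with adjusted p of 0.0571 to 0.0714, without control replicate 1, 2, 4 or 5 or day 21 replicate 4. The ratio of Fbn2 to Fbn1, between the fibrillins, had a median of 0.0236 in controls, 0.0507 on day 3, 0.0584 on day 7, 0.0758 on day 14 and 0.0463 on day 21. With 0.1 FPKM added, which is more than every Fbn2 value in controls, the log2 differences were -0.30, 0.05, 0.54 and 0.18, and none passed (exact permutation p of 0.230, 0.931, 0.197 and 0.492). With 1 FPKM added, the differences on days 3 and 7 were -1.40 (adjusted exact p = 0.0190) and -0.89 (adjusted exact p = 0.0216). Those on days 14 and 21 were -0.24 and -0.09, so the sign turned with the amount added on days 7, 14 and 21. The medians with nothing added were above the control median at every time point, day 3 included. The negative differences thus came with the amount added, and no fall of this ratio is read from them.

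**Figure D3:**
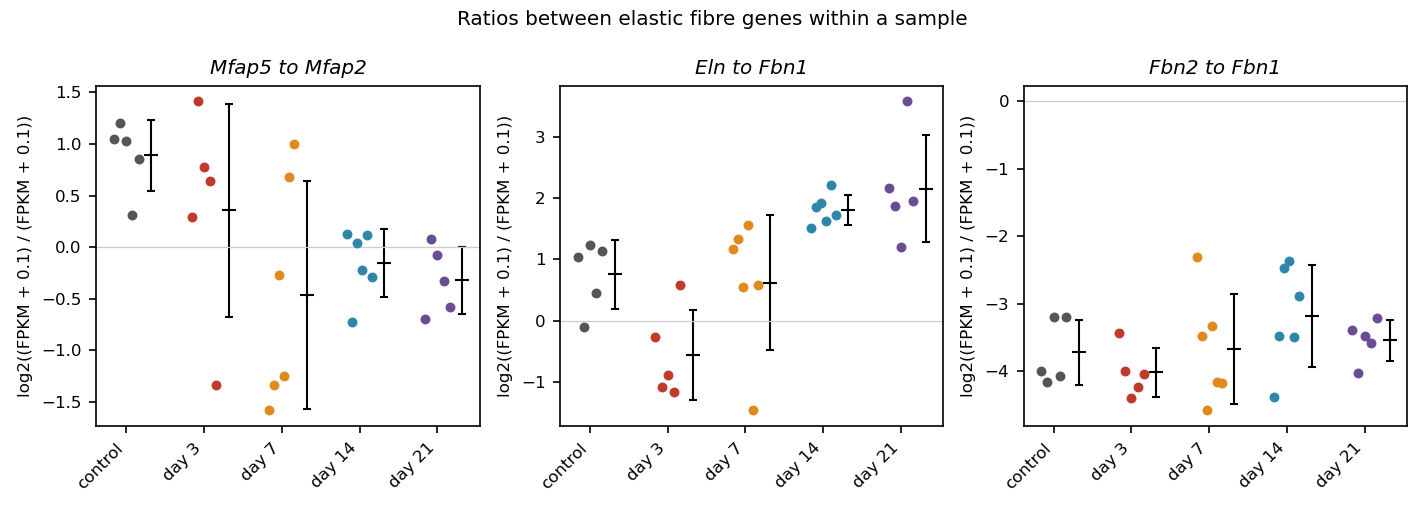
Log2 ratios of 3 gene pairs (vertical axes, 0.1 FPKM added to each gene) in each sample (points, by group), with the group mean and SD as a black bar. The Mfap5 to Mfap2 ratio lay below the controls on days 14 and 21, and the Eln to Fbn1 ratio lay below most controls on day 3 and above all of them on day 14.

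Across the 27 samples, which share the 5 groups, the genes fell along a range of likeness, given as Pearson's r of log2(FPKM + 1) and as a description only. The most alike pairs were Mfap2 and Mfap4 (0.919), Fbn1 and Fbln2 (0.894), Fbn1 and Emilin1 (0.869), Eln and Mfap4 (0.849) and Eln and Mfap2 (0.835). The least alike were Eln and Emilin1 (0.048) and Eln and Fbn1 (0.167). After the group means were removed, the r of Eln and Mfap2 was 0.844, that of Mfap2 and Mfap4 0.850 and that of Fbn1 and Emilin1 0.514.

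**Figure D4:**
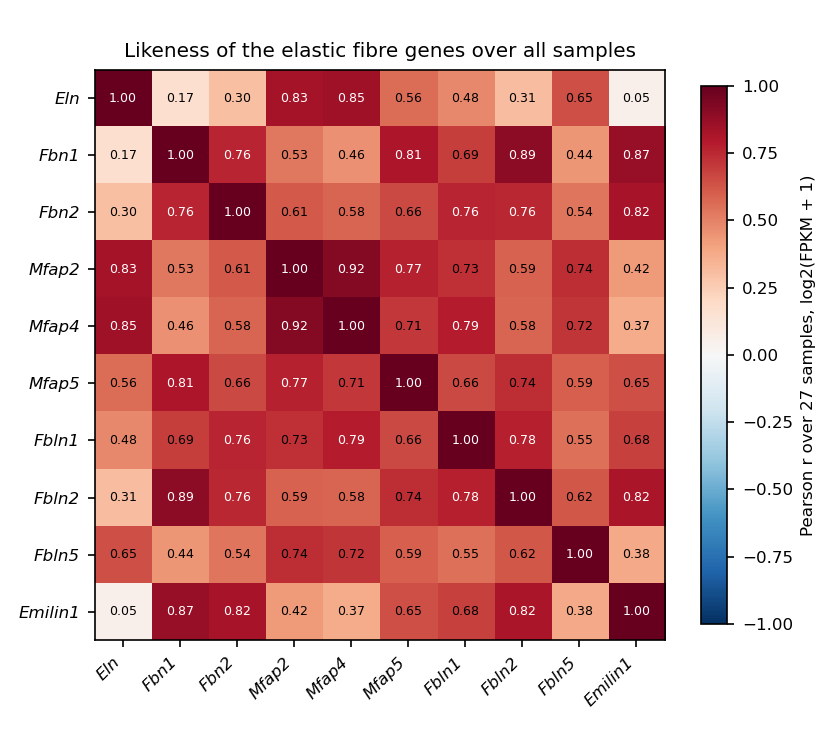
Pearson's r between each pair of elastic fibre genes over the 27 samples, on the log2(FPKM + 1) scale, from -1 (blue) to 1 (red). The values run from 0.048 for Eln and Emilin1 to 0.919 for Mfap2 and Mfap4.

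Among all tested genes outside the set, those most like each elastic fibre gene over the 27 samples by the same r were as follows. Eln was nearest to Cygb (0.882), Gdf10 (0.874) and Ace (0.846). Mfap2 was nearest to C1ra (0.936), Ssc5d (0.933) and Col14a1 (0.930), and Mfap4 to Angptl1 (0.941), Ssc5d (0.937) and the gelatinase Mmp2 (0.924). Fbn1 was nearest to Scpep1 (0.947), Kdelr2 (0.939) and the cross-linking enzyme Loxl1 (0.935), and Fbln2 also to Loxl1 (0.931), with Man1a (0.931) and Ccbe1 (0.927). Emilin1 was nearest to Glb1 (0.963), Loxl3 (0.957) and the proliferation marker Mki67 (0.957). Mfap5 was nearest to the procollagen processing enhancer Pcolce (0.911), Thy1 (0.909) and Mmp23 (0.901), Fbln1 to Clec11a (0.882), Nox4 (0.877) and the protease Ctsk (0.875), Fbln5 to Nlgn2 (0.874), Ebf1 (0.870) and Arhgef40 (0.858), and Fbn2 to Sulf2 (0.876), Chil1 (0.858) and P4ha3 (0.853).

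The lysyl oxidases, which cross-link tropoelastin and collagen, rose at the same time points. Of 5 listed, 4 were tested and Loxl4 was not. All 4 were called higher on days 3 and 7, 3 on day 14 and 0 on day 21, where 2 had an unadjusted p under 0.05. Lox rose from 1.12 ± 0.192 FPKM (SD, n = 5) to 17.99 ± 6.28 (n = 5) on day 3, a log2 fold change of 3.09 (SE 0.29, limma adjusted p = 7.50e-08), and was at 2.65 ± 0.769 (n = 5) on day 21 (0.76, adjusted p = 0.141, or 0.0245 without day 3 replicate 5 and day 7 replicate 5). Loxl1, the isoform tied to elastin, rose by 2.29 (SE 0.30, adjusted p = 2.87e-06) on day 3 and was at 0.41 (adjusted p = 0.465) on day 21, and Loxl3 rose by 2.04 (SE 0.29, adjusted p = 8.44e-06) on day 3. Between day 21 and day 3 all 4 fell, Lox by 2.32 (adjusted p = 2.56e-05). When both doubted libraries were left out, the counts higher were 4, 4, 4 and 2 on days 3, 7, 14 and 21, with Loxl3 gained on day 14 (0.58, adjusted p = 0.0353) and Loxl2 (0.70, adjusted p = 0.0309) as well as Lox on day 21.

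The other microfibril-associated genes moved less evenly. Of 21 listed, 20 were in the table and 14 were tested, and 4 were called higher and 1 lower on day 3, 6 and 1 on day 7, 5 and 0 on day 14 and 0 and 0 on day 21, where 3 had an unadjusted p under 0.05. On day 3 the 4 of 14 called higher was near the 23.4% of all tested genes. The 3 of 14 on day 21 (Efemp2, Adamtsl4 and Ltbp1) were all higher, a direction in which 1351 of 14630 tested genes had an unadjusted p under 0.05. Efemp2, the fibulin that brings lysyl oxidase to elastin, rose by 2.31 (SE 0.24, limma adjusted p = 2.57e-07), Emilin2 by 1.85 (SE 0.31, adjusted p = 4.41e-05) and Ltbp2 by 1.49 (SE 0.27, adjusted p = 0.000113) on day 3. The latent TGF-beta binding proteins otherwise differed in level and time. Ltbp2 went from 0.0663 ± 0.0512 FPKM (SD, n = 5) in controls to 2.18 ± 1.17 (n = 5) on day 3, and since no control sample reached 0.5 FPKM it entered the test through the injured groups, as Fbn2 did. Ltbp3 stood at 0.10 (adjusted p = 0.710) on day 3, or 0.72 (adjusted p = 0.0288) with own read totals, and rose by 0.58 (adjusted p = 0.0232) on day 7 and 0.54 (adjusted p = 0.0452) on day 14. The day 7 call of Ltbp3 was lost without control replicate 1 or day 7 replicate 1 or 4 (0.45 to 0.52, adjusted p of 0.0616 to 0.0726), and the day 14 call without any of control replicates 1, 2, 4 and 5 or day 14 replicates 1, 2, 4, 5 and 6 (0.48 to 0.55, adjusted p of 0.0638 to 0.109). Ltbp4 stood at -0.46 (adjusted p = 0.165) on day 3, or -0.68 (adjusted p = 0.0332) without day 3 replicate 5 and 0.16 with own read totals. It was higher on day 21 than on day 3 by 0.82 (adjusted p = 0.0230), a call lost with own read totals (0.38, adjusted p = 0.275), with the common sum (0.24, adjusted p = 0.528) and without day 3 replicate 3 or 4 or day 21 replicate 5 (0.71 to 0.73, adjusted p of 0.0612 to 0.0774). With both doubted libraries left out the counts were 4 higher and 2 lower on day 3, 6 and 1 on day 7, 6 and 0 on day 14, where Ltbp4 was gained (0.63, adjusted p = 0.0225), and 0 and 0 on day 21.

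Receptors for elastic fibre proteins include the RGD-binding integrins and Glb1, whose splice form is the elastin-binding protein. Of 11 listed genes 9 were tested. Of these, 6 were called higher and 1 lower on days 3 and 7, 3 higher on day 14 and 0 on day 21. The 1 of 9 lower was below the 19.8% and 14.4% of all tested genes lower on days 3 and 7. On day 21, 4 had an unadjusted p under 0.05 (3 higher and 1 lower), beside 1351 higher and 1547 lower of all 14630 tested genes. On day 3 Glb1 rose by 1.94 (SE 0.27, limma adjusted p = 6.79e-06), Itga5, the fibronectin receptor subunit, by 1.79 (SE 0.26, adjusted p = 1.06e-05) and Itgb3 by 0.78 (SE 0.13, adjusted p = 6.67e-05). No control sample reached 0.5 FPKM of Itgb3, which therefore entered the test through the injured groups. With both doubted libraries left out the counts were 7 higher and 1 lower on day 3, 4 and 1 on day 7, 4 and 1 on day 14, where Glb1 was gained (0.63, adjusted p = 0.0279), and 0 and 0 on day 21. Gene-level counts do not separate the Glb1 splice forms.

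Enzymes that cleave elastin and microfibrils include matrix metalloproteinases and cathepsins. Of 12 listed 10 were tested, and 9 were called higher on day 3, 7 on day 7, 4 on day 14 and 1 on day 21, with 0 lower. Of the 10, 3 (Mmp12, Prtn3 and Cela1) had no control sample at 0.5 FPKM and entered the test through the injured groups. These 3 were among the 9 called on day 3, when only Mmp9 was not called (limma adjusted p = 0.0728). The 4 called on day 14 were Ctss, Mmp2, Mmp14 and Ctsk, which did not enter that way. Once both doubted libraries were left out, 9 were tested and 9, 6, 4 and 1 were called higher. Ctss, a cathepsin of macrophages, rose from 2.20 ± 0.733 FPKM (SD, n = 5) to 288.9 ± 159 (n = 5) on day 3, a log2 fold change of 6.26 (SE 0.67, limma adjusted p = 2.86e-07), and Ctsk rose by 2.39 (SE 0.33, adjusted p = 5.07e-06). On day 14 Ctss was at 1.79 (adjusted p = 0.0487), a call lost under quantile normalization (adjusted p = 0.0763) and without any of control replicates 1 to 5 or day 14 replicates 1, 2, 4, 5 and 6 (1.65 to 1.92, adjusted p of 0.0542 to 0.0952). The membrane protease Mmp14 rose by 2.51 (SE 0.30, adjusted p = 8.71e-07) on day 3 and was the listed enzyme still called on day 21, at 1.09 (SE 0.30, adjusted p = 0.0392), with 4.46 ± 0.732 FPKM (SD, n = 5) in controls and 10.7 ± 1.87 (n = 5) on day 21. That call was lost under quantile normalization (adjusted p = 0.0901), the common sum (0.183) and own read totals (0.117), and without any of control replicates 1 to 5 or day 21 replicates 1, 2, 4 and 5 (1.01 to 1.13, adjusted p of 0.0585 to 0.103).

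All 10 listed genes of TGF-beta signalling and processing were tested. On day 3, 5 were called higher and 2 lower, on day 7 5 and 1, on day 14 4 and 1 and on day 21 0 and 0. The counts lower were near the 19.8%, 14.4% and 11.3% of all tested genes lower on days 3, 7 and 14. On day 21, 3 had an unadjusted p under 0.05, all higher, as had 1351 of 14630 tested genes in that direction. On day 3 Tgfb1 rose by 2.35 (SE 0.38, limma adjusted p = 3.33e-05), the procollagen and lysyl oxidase processing protease Bmp1 by 1.42 (SE 0.20, adjusted p = 6.09e-06) and the receptor Tgfbr2 by 1.21 (SE 0.22, adjusted p = 0.000129). With both doubted libraries left out the counts were 7 higher and 1 lower on day 3, 4 and 1 on days 7 and 14, and 1 and 0 on day 21, where Tgfb1 was called at 1.27 (adjusted p = 0.0247, against 0.0589 with all libraries). The genes of these lists called lower on day 3, named here after their values were seen, changed sign with the scaling. Adamtsl5 (-0.58), Itgb6 (-0.46), Tgfb2 (-0.61) and Smad3 (-0.63) stood at 0.19, 0.20, 0.01 and 0.15 when FPKM was rescaled to a common sum, and none of them was then called. The call of Smad3 was also lost without day 3 replicate 5 and day 7 replicate 5 (-0.52, adjusted p = 0.0634) and under quantile normalization (-0.57, adjusted p = 0.0506).

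**Figure D5:**
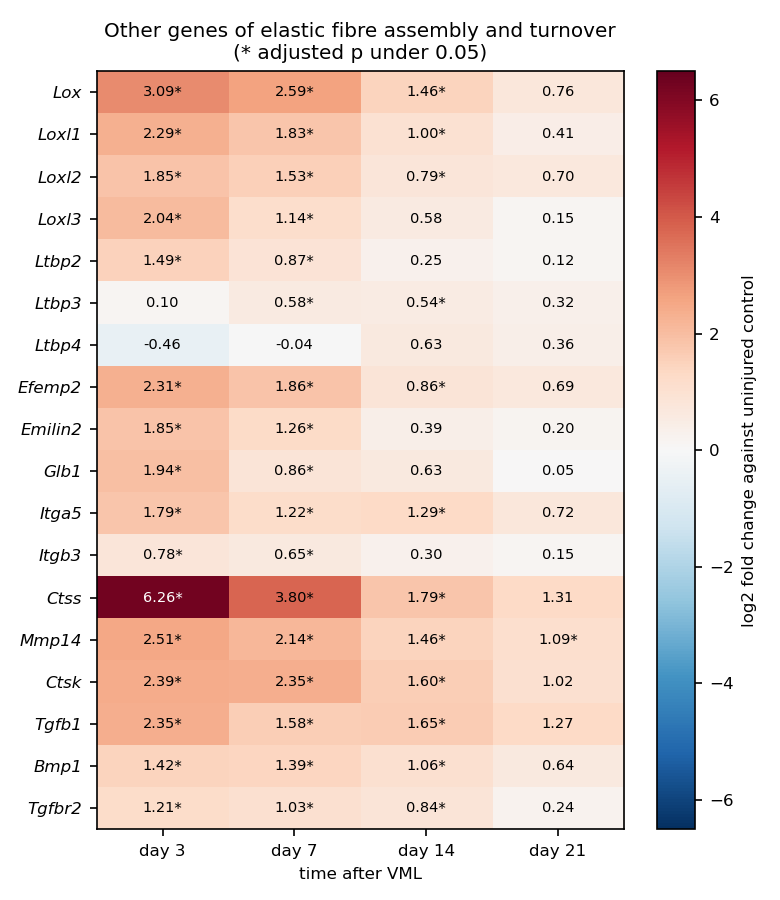
Log2 fold change against uninjured control of 18 other genes of elastic fibre cross-linking, assembly, binding, cleavage and signalling (rows) at each time point (columns), with an asterisk where the adjusted p was under 0.05. Mmp14 carries the asterisk on day 21.

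Cell type markers moved over the same samples, with 4, 4, 4 and 1 of 5 fibroblast markers and 5, 4, 1 and 0 of 5 macrophage markers called higher on days 3, 7, 14 and 21, and 4, 2, 1 and 0 of 5 muscle fibre genes called lower. Leaving out the doubted libraries made these counts 4, 5, 4 and 1, then 5, 5, 2 and 0, and 4, 0, 1 and 0. Of the macrophage markers 3 (Ptprc, Adgre1 and Itgam) had no control sample at 0.5 FPKM and entered the test through the injured groups. Cd68 and Csf1r, which did not, were called higher on days 3 and 7. The summed FPKM of 5 fibroblast markers (Pdgfra, Dcn, Dpt, Lum, Col1a1) ranged over 46.8 to 114 in controls, 288 to 569 on day 3, 205 to 777 on day 7, 118 to 388 on day 14 and 106 to 168 on day 21. The 5 macrophage markers ranged over 2.81 to 3.65, 48.2 to 322, 6.10 to 308, 8.75 to 21.1 and 6.53 to 10.2. The 5 muscle fibre genes ranged over 52267 to 62899 in controls and 17567 to 45275 on day 3, and had a median of 49436 on day 21. Markers of adventitial fibroblasts (Pi16, Dpp4, Ly6a, Cd34, Sema3c) ranged over 71.4 to 86.7 in controls, 102 to 179 on day 3 and 62.9 to 87.7 on day 21, those of smooth muscle and pericytes (Myh11, Acta2, Tagln, Rgs5, Pdgfrb) over 165 to 239, 208 to 241 and 174 to 272, those of tendon (6 genes) over 50.3 to 113, 77.3 to 166 and 38.7 to 183, and those of endothelium (5 genes) over 59.3 to 72.4, 40.3 to 89.5 and 55.4 to 76.2. Adipocyte markers (Adipoq, Plin1, Cfd, Lep) had a median of 8.77 in controls and 103 on day 7, where they reached 336. The rise of the fibroblast sum on day 3 came mostly from Col1a1, a collagen gene. Its mean FPKM was 23.7 in controls, 296.5 on day 3 and 63.1 on day 21. The means of Pdgfra, Dpt and Lum were also higher on day 3, and that of Dcn went only from 30.7 to 32.7. The size of this sum is therefore not read as a number of fibroblasts. Some sums hold markers that moved in opposite directions. On day 3, 1 of 4 tested adventitial markers was called higher and 1 lower, and of 5 smooth muscle and pericyte markers 1 and 2. Of 5 endothelial markers, 0 were called higher and 2 lower on day 3, and 1 was called lower at each later time. The endothelial marker Kdr had a mean of 9.59 FPKM in controls, 3.29 on day 3 and 4.74 on day 21. Mean FPKM of Ly6a went from 61.8 in controls to 104.4 on day 3, and of Sema3c from 5.27 to 2.64. That of Acta2 went from 71.6 to 152.5, of Rgs5 from 100.4 to 53.7 and of Myh11 from 8.41 to 4.33. In each list every marker was above 0 in at least 1 sample of each group, except 1 adipocyte gene on day 3. The part of these shifts in the levels of the elastic fibre genes was not tested.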

How the data were processed

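RNA from whole tibialis anterior was measured in 27 samples of 5 groups, taken from the sample labels. Per the labels and the study's methods, the authors made non-directional poly(A) libraries, aligned reads with HISAT2 2.0.5 and counted them per gene with featureCounts 1.5.0-p3, the versions as in the submitters' processing notes. The deposited values are FPKM for 54532 genes. Multiplied by gene length they gave whole reads, and their denominator was 0.747 to 1.48 times the sample's own read total (mean 0.782 in controls and 1.25 at day 3), with median-ratio size factors of 1 in every sample. So they had been scaled between samples before deposit, which can move the sign of small changes. Read totals were 14376395 to 24436763 (median 17398586).

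The 14630 genes that reached 0.5 FPKM in 5 samples or more entered a limma model (version 3.58.1, R 4.3.3) of log2(FPKM + 1) with trend, all samples in 1 fit and a mean per group. Adjustment was by Benjamini-Hochberg within each of 8 comparisons, over all tested genes. Single genes and ratios were tested by exact two-sided permutation of samples, whose smallest p is 0.00794 for 5 against 5 samples and 0.00217 for 6 against 5. All divisions of the samples were enumerated in Python 3.11.15, and the function was checked against scipy 1.17.1 on made-up numbers. The fit was tested on simulated data. Promoters came from RefSeq (GRCm38.p6). No sample column of the table was left unused.

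All 10 members are named, with up to 3 called genes per pathway list of largest change at day 3 and at day 21, Lox, Loxl1 and Ltbp2 to Ltbp4 in any case, and the 3 genes nearest each member. The members and lists were chosen with earlier results of these data known. Alternatives were other pseudocounts, filters, scalings, spread estimates, replicate blocks and leaving out libraries. Those with own read totals and without day 3 replicate 5 and day 7 replicate 5 together were chosen after seeing the data. Sequences of the other 4 genes were not used here.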

Additional observations from a re-analysis of the deposited data

Results flagged for a closer look

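Of 50 sets of values (10 genes in 5 groups), 7 held a sample that stood apart by Dixon's 95% criterion, where chance marks about 1 in 20. The library labelled day 3 replicate 5 was the highest of its group for 4 of them, with 13.6 FPKM for Eln against 4.54 to 6.51 in the other day 3 samples, 53.01 for Mfap2 against 10.04 to 12.1, 33.3 for Mfap4 against 9.28 to 14.8 and 4.56 for Fbln5 against 1.86 to 2.40. In the same library the summed macrophage markers were 48.2 FPKM, below the other day 3 samples. The library labelled day 7 replicate 5 held 12.5 FPKM of Fbn1 against 4.23 to 6.82 in the other day 7 samples. Day 14 replicate 4 held 0.790 FPKM of Fbn2, above the 0.0987 to 0.250 of its group, and day 21 replicate 4 held 14.1 FPKM of Eln, above 7.86 to 9.59.

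The change from control was smaller at day 21 than at day 3, by limma's test of the difference between those groups, for 6 genes. The differences on the log2 scale were -1.80 for Emilin1, -1.76 for Fbn1, -1.28 for Mfap5, -0.83 for Fbln2, -0.81 for Fbln1 and -0.45 for Fbn2. The changes at both time points share the control samples, which drop out of these differences.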

How the results depend on the processing

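Of 1892 values of single genes under alternatives, 1813 kept direction and side of the threshold, 31 lost a call, 25 gained one and 23 changed sign, all 23 of them uncalled before. Unless stated, the cause was not tested. Against 2 members called higher on day 21 there were 1 with no filter, 1 under quantile normalization and 0 under the common sum. There were 1 with own read totals and 4 with only the 2 groups in the fit. Of all tested genes, 255 were called higher on day 21, and 153, 64 and 106 under quantile normalization, the common sum and own read totals. Between days 7 and 3 there were 4 without day 3 replicate 5 and day 7 replicate 5, the doubted libraries, against 0. That choice tends to widen the difference, since each lay nearest the other group's mean. Leaving out 1 replicate gave 8 to 10 members on day 3, 10 on day 7, 4 to 6 on day 14, 1 to 2 on day 21, 0 to 2 between days 7 and 3 and 5 to 6 between days 21 and 3. Fbn2 did not pass a filter of 1 FPKM and was not tested under it.

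Replicate numbers do not pair the samples (median r of deviations -0.003 over 51 same-number pairs, 15 of them over 0.1). With a replicate block by the letter in the description, 9 members were called on day 14, against 5. Over the alternatives other than leaving out 1 replicate, 2205 to 3748 of all tested genes were called on day 14, against 2969. The number under the letter block alone is not given here. With a replicate block by number or letter, the day 7 minus day 3 difference of Fbln1 became 0.0784 or 0.0485, and by letter the day 21 minus day 3 difference of Mfap4 became 0.0404.

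Other sign changes were Fbn2 on day 21 under quantile normalization (-0.0156), Eln (-0.0574) and Mfap4 (-0.2296) from day 7 to 14 and Eln from day 3 to 21 (-0.0542) under the common sum, Mfap4 from day 7 to 14 with own read totals (-0.1339), and, without both doubted libraries, Eln (-0.0154) and Mfap4 (-0.2529) from day 7 to 14 and Fbln5 from day 3 to 21 (0.0407). Leaving out 1 replicate gave -0.0045 to 0.1902 for Emilin1 on day 21, -0.2030 to 0.0579 for Fbln1 from day 3 to 7, -0.0154 to 0.3769 for Eln and -0.2646 to 0.3293 for Mfap4 from day 7 to 14, -0.2739 to 0.0115 for Eln from day 14 to 21, and -0.2199 to 0.0407 for Fbln5 from day 3 to 21.

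With a pseudocount of 1, Fbn2 to Fbn1 stood at -1.3979 (adjusted exact p = 0.0190), -0.8944 (0.0216), -0.2429 (0.436) and -0.0872 (0.753) on days 3, 7, 14 and 21, and Eln to Fbn1 at 0.0227 on day 7. A pseudocount of 0 gives no log ratio of Fbn2 on day 21, and this ratio was then not tested on any day. Leaving out 1 replicate gave -0.2237 to 0.2316 for Fbn2 to Fbn1 on day 7, -1.6419 to -1.1259 and -1.3535 to -1.1161 for Mfap5 to Mfap2 on days 7 and 21, and -1.5979 to -1.1621, -0.3467 to 0.2846 and 1.0422 to 1.6354 for Eln to Fbn1 on days 3, 7 and 21.

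Over all tested genes, 502 were called on day 21 against 72 to 1477 under alternatives, 7 between days 7 and 3 against 1 to 2173 (1741 without day 7 replicate 5), 49 between days 14 and 7 against 5 to 154, 4296 on day 7 against 6582 under the common sum, 2969 on day 14 against 1896 without day 14 replicate 5, and 3728 between days 21 and 3 against 2256 without day 3 replicate 4. At 3 to 14 reads per control sample, depth limits Fbn2.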
